A study of Mus musculus with 34 samples.

Results

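Homologous recombination mends broken DNA by copying the intact sister strand, and the Fanconi anaemia pathway unhooks crosslinks between the strands when a replication fork runs into them. Both draw on the same proteins: breaks are trimmed to single strands, mediators such as Brca1 and Brca2 prepare these for strand exchange, and the kinases Atm and Atr hold the cell cycle meanwhile. Because the sister strand exists only after replication, many of these genes are transcribed mainly in dividing cells, and in the liver most hepatocytes rest until an injury makes them divide. The 36 genes described here were chosen by name from the 28598 genes listed for hepatocytes or liver macrophages, and each of the 36 is listed for both cell types. By role they are 4 mediators (Brca1, Bard1, Brca2, Palb2), 3 strand exchange factors (Rad51ap1, Rad54b, Rad54l), 5 members of the paralog complexes (Rad51b, Rad51c, Rad51d, Xrcc2, Xrcc3), 8 proteins of the Fanconi core complex (Fanca, Fancb, Fancc, Fance, Fancf, Fancg, Fancl, Fancm), 3 that act with or downstream of it (Fancd2, Fanci, Brip1), 6 resection factors (Mre11a, Rad50, Nbn, Rbbp8, Exo1, Dna2), 2 that undo or cut joint molecules (Blm, Eme1), 4 kinases (Atm, Atr, Chek1, Chek2) and Msh6, which recognises mismatches.

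The mice were of a mixed B6;129P background and carried floxed alleles of Yap and Taz. Knockout mice (Opn-CreERt2 Yap fl/fl Taz fl/fl) also carried a tamoxifen-inducible Cre under the osteopontin promoter, which is known for its activity in bile duct cells, and controls were siblings (Yap fl/fl Taz fl/fl) without Cre. Every mouse, control or knockout, received 1.6 mg/kg tamoxifen on 5 days at 7 to 8 weeks of age and then waited 3 weeks. The injured mice received carbon tetrachloride (CCl4), which pericentral hepatocytes turn into a toxic radical, at 1 ml/kg, and were sampled 48 h later. Hepatocyte libraries came from 4 knockouts with CCl4 (mice 13, 14, 17 and 18), 3 controls with CCl4 (12, 15 and 16), 5 uninjured knockouts (4, 5, 10, 20 and 21) and 6 uninjured controls (2, 6, 7, 8, 9 and 19). Macrophage libraries, from F4/80+ CD45+ cells, came from 4 knockouts with CCl4 (13, 14, 17 and 18), 4 controls with CCl4 (11, 12, 15 and 16), 4 uninjured knockouts (4, 5, 20 and 21) and 4 uninjured controls (6, 7, 8 and 9). Per-library values below follow these orders of mouse numbers. Values are counts of 3′ tags scaled to a common library total (CPM), and changes are log2 fold changes ± SE from edgeR's quasi-likelihood test, fitted to all genes, with Benjamini-Hochberg adjusted p under 0.05 as the threshold.

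Library totals ran from 931496 to 7535053 counts in hepatocytes and from 596380 to 5128587 in macrophages, so 3 counts stood for 0.398 to 3.22 CPM in hepatocytes and 0.585 to 5.03 CPM in macrophages. Another label gave the opposite genotype for 2 libraries, hepatocytes of mouse 15 and macrophages of mouse 11, which were kept as controls by their genotype label. The deeper libraries belong to a first numbered series of sequencing files, with 7 libraries, all from controls: hepatocytes of mice 2, 7, 8, 12 and 15 and macrophages of mice 8 and 11. Macrophages of control mouse 7 had a count for 17 of the 36 genes and for 12427 genes in all, the fewest of the 34 libraries for both. The hepatocyte marker sum was 58503 to 98780 CPM in hepatocytes, and the Kupffer cell marker sum 6315 to 23380 CPM in macrophages. The macrophages also held 378 to 33011 CPM of the hepatocyte markers. Yap1 read 64.1 to 92.9 CPM in CCl4-treated knockout hepatocytes and 47.1 to 62.6 in CCl4-treated controls, and the deletion, meant for bile duct cells, is not checked by these values. Mice are separate animals within a cell type, so p-values measure the spread between their libraries, and in sorted bulk samples more cells with a transcript and more transcript per cell cannot be told apart.

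The 250 bases before the RefSeq start (GRCm38.p6) were available for 28 of the 36 genes and were searched for letters that occur at promoters of genes of the division cycle. The E2F-type letters TTTCCCGC, TTTGGCGC, TTTCGCGC and TTTGCCGC, on either strand, were found in 4 of the 28 genes (14.3%), against 583 of the 27025 genes in the table (2.16%), and in each of the 4 the letters were TTTCCCGC. The letters CCAAT stood in 17 of 28 (60.7%), against 37.5% of genes, and TTTGAA, searched the same way, in 1 of 28 (3.57%), against 18.3%. No E2F-type match overlapped a match of the other letters, and a match here describes the letters only, not a bound site. The 4 E2F-type stretches are shown because they belong to genes of 3 different roles, the mediators Bard1 and Brca2, a checkpoint kinase and a Fanconi core protein, with the matching letters (or their complement, GCGGGAAA) in capitals. They are read as the RefSeq table gives them, which matched the direction of a transcript for 3 of the 4 and could not be matched for Brca2. The Fancg stretch lies before its RefSeq start but within the gene of the GRCm38 annotation, which reaches chr4:43010506.
Bard1 (chr1:71103154-71103201, minus strand, -229 to -182 from the start): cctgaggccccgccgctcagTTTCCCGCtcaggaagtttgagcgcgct
Brca2 (chr5:150522433-150522480, plus strand, -188 to -141 from the start): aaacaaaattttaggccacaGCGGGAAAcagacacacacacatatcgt
Chek2 (chr5:110839811-110839858, plus strand, -172 to -125 from the start): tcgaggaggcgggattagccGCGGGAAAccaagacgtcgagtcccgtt
Fancg (chr4:43010326-43010373, minus strand, -72 to -25 from the start): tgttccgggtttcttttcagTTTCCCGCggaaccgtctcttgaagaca
The CCAAT letters (or ATTGG on the other strand) of 3 genes that rose in both cell types after CCl4 in controls are shown in capitals for comparison, for Rad54l at 1 of its 2 RefSeq starts.
Brip1 (chr11:86201203-86201312, minus strand, -119 to -10 from the start): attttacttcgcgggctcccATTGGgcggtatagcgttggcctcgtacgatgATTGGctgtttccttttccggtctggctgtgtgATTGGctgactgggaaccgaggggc
Rad51ap1 (chr6:126939599-126939643, minus strand, -56 to -12 from the start): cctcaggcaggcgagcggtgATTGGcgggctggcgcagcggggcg
Rad54l (chr4:116123716-116123760, minus strand, -70 to -26 from the start): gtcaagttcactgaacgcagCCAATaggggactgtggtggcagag
In hepatocytes of controls, Bard1, Brca2 and Chek2 rose after CCl4 and Fancg had too few counts for the test. In macrophages Bard1 and Fancg rose, and Brca2 and Chek2 did not pass. Of the 14 genes with a promoter that rose in control hepatocytes 3 had E2F-type letters, and of the 5 tested and not called 0 had them. In macrophages 2 of the 9 that rose and 2 of the 10 not called had them. The CCAAT letters stood also before Atm, Fancc and Rad51b, not called in control hepatocytes, and before Fance, which fell there. Chek1, Atr, Bard1, Brca2 and Rad51c, which rose there, lacked them, and whether these letters go with the rise was not tested.

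Summed over the 36 genes, hepatocytes held 371 to 527 CPM in CCl4-treated knockouts, 451 to 544 in CCl4-treated controls, 138 to 280.5 in uninjured knockouts and 121 to 173 in uninjured controls. No uninjured hepatocyte library reached an injured one. Macrophages held 629.9 to 1271 CPM in CCl4-treated knockouts, 801 to 860 in CCl4-treated controls, 423 to 523 in uninjured knockouts and 365 to 513 in uninjured controls, again without overlap between injured and uninjured libraries. Uninjured macrophages held more of these transcripts than uninjured hepatocytes in every library, on the scale of summed CPM within each library. Abundant genes weigh most in such a sum. Rbbp8 alone held 112 to 142 CPM in uninjured knockout macrophages and 109 to 200 in uninjured control macrophages. In hepatocytes it held 8.71 to 33.2 and 9.0 to 24.0 CPM in the same order. Whether the sums part between cell types without Rbbp8 was not tested. For comparison, nucleotide excision genes, a list described further below, parted in the same way in hepatocytes and within each genotype in macrophages. Their hepatocyte sums were 667 to 724 CPM in CCl4-treated knockouts and 591 to 688 in CCl4-treated controls. Uninjured knockouts held 437 to 580 CPM of them and uninjured controls 441 to 517. A parting of sums on this scale is therefore not particular to the 36 genes.

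**Figure D1:**
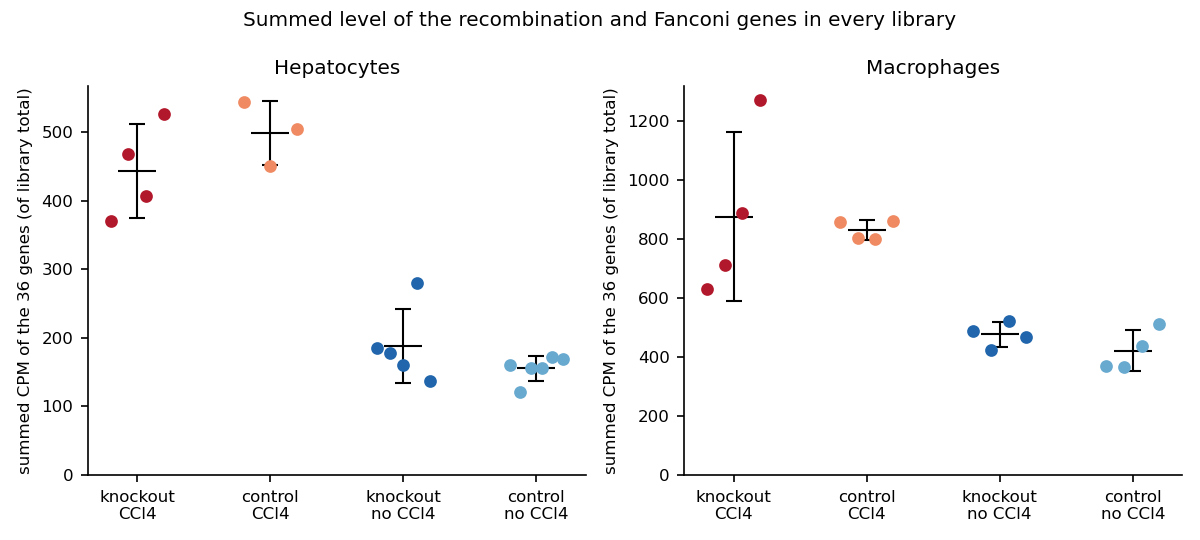
Summed CPM of the 36 genes in each library (points), with the mean and SD of each group, for hepatocytes (left) and macrophages (right). Injured groups lie above uninjured ones in both cell types, from 371 CPM upwards in hepatocytes and from 629.9 CPM upwards in macrophages. The sum of nucleotide excision genes, not drawn, parts in the same way in hepatocytes.

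**Figure D2:**
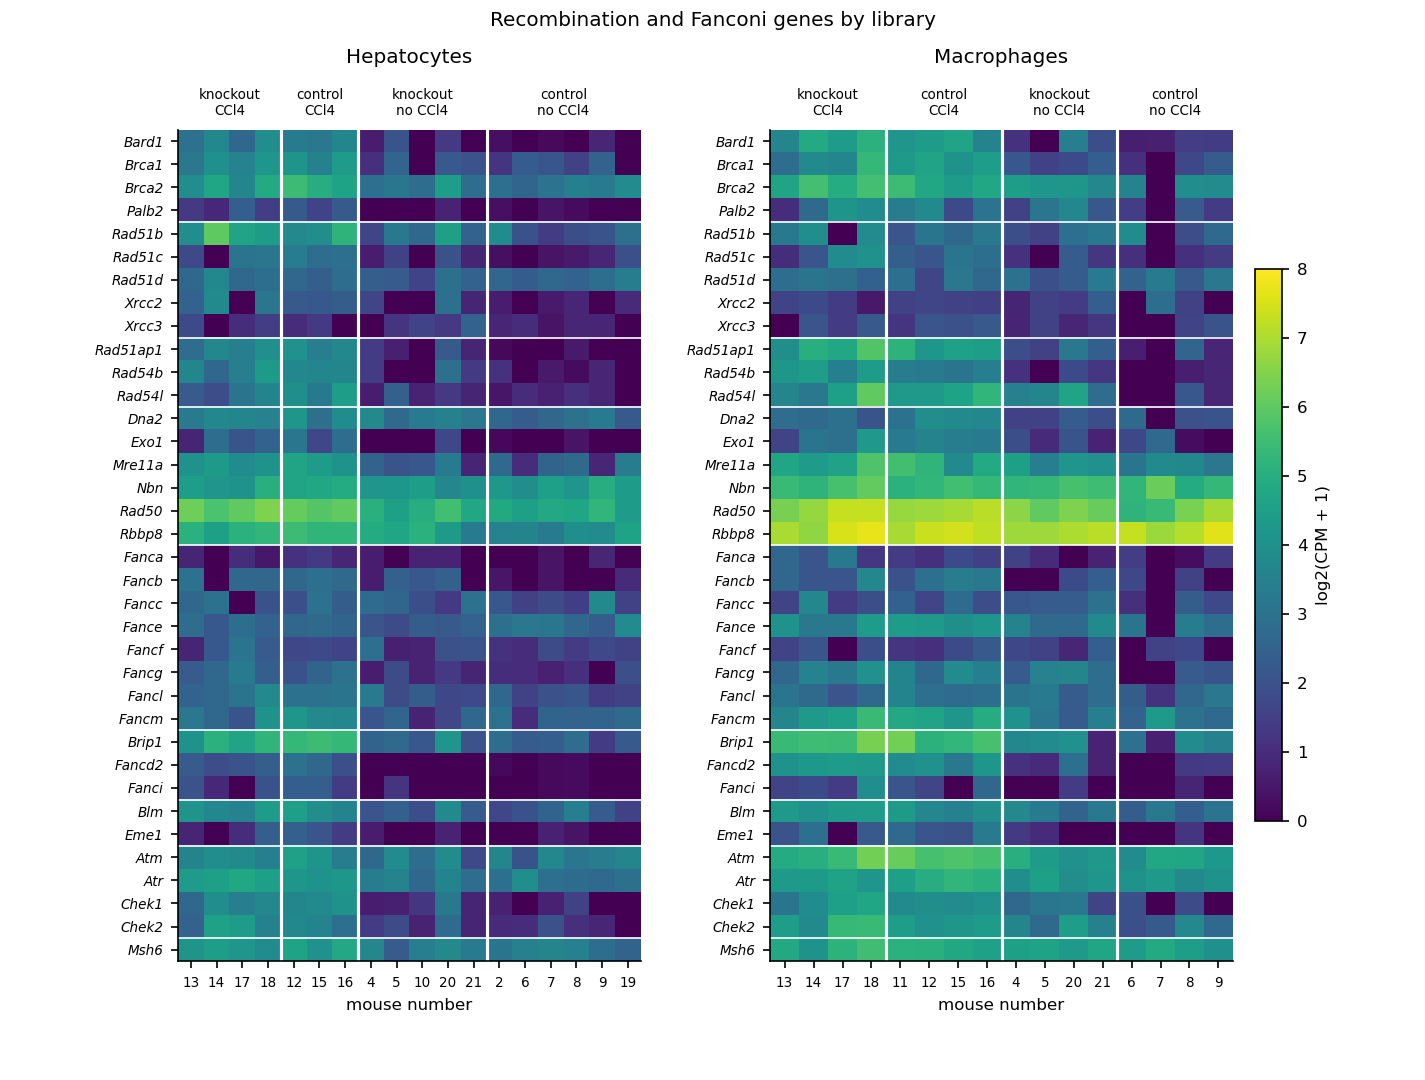
Level of each of the 36 genes in each library as log2(CPM + 1), genes ordered by role and libraries by group, knockout with CCl4, control with CCl4, uninjured knockout and uninjured control within each cell type. The strand exchange genes and Bard1 are mostly dark (low) in uninjured hepatocytes and lighter (higher) after CCl4, while Rad50, Nbn and Rbbp8 are among the lighter genes in both.

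After CCl4, control hepatocytes had more transcript of 18 of the 36 genes and less of 1, Fance, by the test over all genes. The largest rises were those of the strand exchange gene Rad51ap1 (log2 change 5.44), the Brca1 partner Bard1 (4.99) and the translocases Rad54l (3.83) and Rad54b (3.79). Of all 9679 genes tested 27.4% were called, 13.7% as higher. The test covered 26 of the 36 genes, and the other 10 (Palb2, Xrcc3, Fanca, Fancb, Fancd2, Fancf, Fancg, Fanci, Exo1 and Eme1) had too few counts. A gene that enters the test only through the group where it is high is bound to differ, so the share of the tested genes says little by itself. Without any test, 27 of the 36 genes had every injured control above every uninjured control, against 14% of all 24951 genes listed. The 27 comprise 19 tested genes, against 24.8% of tested genes, and 8 of the 10 with few counts. CPM here use library totals, without the scaling factors (TMM) that the test applies. These factors were 0.771 to 0.912 in uninjured controls and 1.08 to 1.18 in injured ones. CPM of any gene therefore place injured controls higher, relative to uninjured ones, than the test does. The plot of CCl4 responses gives each tested gene with its error.

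**Figure D3:**
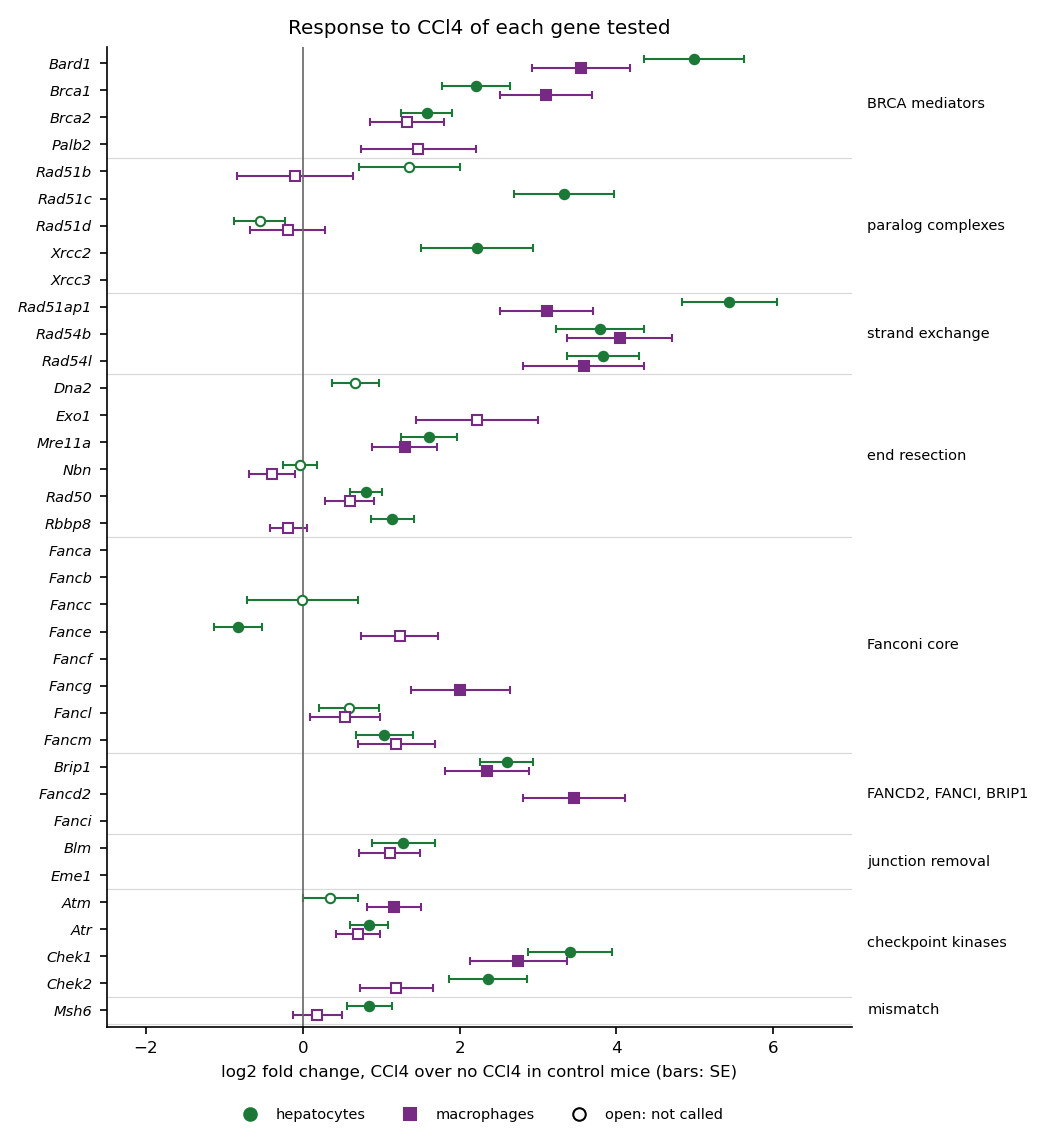
Log2 fold change ± SE of CCl4-treated over uninjured controls for each tested gene, in hepatocytes (green circles) and macrophages (purple squares), ordered by role, filled where the adjusted p is under 0.05. Rad51ap1, Rad54b, Rad54l, Bard1, Brca1, Brip1, Chek1 and Mre11a are filled in both cell types, and Nbn lies near 0 in hepatocytes.

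Of the mediators, 3 of 4 were tested in hepatocytes, of which 2 rose in knockouts and 3 in controls. Brca1 (chr11:101488764-101551955, minus strand), a ubiquitin ligase subunit that steers breaks towards recombination, stood at 7.92, 15.1, 10.7 and 17.3 CPM in CCl4-treated knockouts and 1.09, 5.16, 0, 3.73 and 3.17 CPM in uninjured knockouts. Brca1 in CCl4-treated controls was at 16.5, 10.4 and 20.3 CPM, against 0 to 4.8 CPM (median 2.7) in uninjured controls. No uninjured library of Brca1 reached an injured one of the same genotype. In log2 terms Brca1 rose by 2.05 ± 0.53 in knockouts (adjusted p = 0.0121) and by 2.21 ± 0.43 in controls (adjusted p = 0.000601). Values of Bard1 (chr1:71027498-71103146, minus strand), the obligate partner of Brca1, were 7.13, 12.5, 5.37 and 14.3 CPM in CCl4-treated knockouts, compared with 0.545, 3.23, 0, 1.49 and 0 CPM in uninjured knockouts. With CCl4 the control values of Bard1 were 8.55, 8.29 and 11.6 CPM, against 0 to 0.80 CPM (median 0.0818) in uninjured controls. Bard1 was higher in every injured library than in any uninjured one of its genotype. Bard1 rose on the log2 scale by 2.92 ± 0.62 in knockouts (adjusted p = 0.00212) and by 4.99 ± 0.64 in controls (adjusted p = 2.18e-06). Brca2 (chr5:150522630-150570329, plus strand), a mediator of strand exchange, had 14.3, 24.9, 11.8 and 28.5 CPM in CCl4-treated knockouts, against 6.54, 7.75, 6.23, 20.9 and 6.33 CPM in uninjured knockouts. Injured controls held 43.8, 30.9 and 24.1 CPM, against 5.04 to 13.4 CPM (median 8.0) in uninjured controls. For Brca2, uninjured knockout mouse 20 reached the injured range, while the control groups did not overlap. For Brca2 the log2 change was 0.84 ± 0.36 in knockouts (adjusted p = 0.143), which did not pass, and 1.58 ± 0.32 in controls (adjusted p = 0.000960), which did. Uninjured controls held 4 counts of Bard1 in all 6 libraries together, so the size of its change rests on few reads. Palb2, which tethers Brca2 to Brca1, was too low for the test, with 0.890 to 4.29 CPM in CCl4-treated knockouts, 2.07 to 3.73 in CCl4-treated controls, at most 0.746 in uninjured knockouts and at most 0.327 in uninjured controls.

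The 3 strand exchange factors rose in both genotypes. Rad51ap1 (chr6:126923050-126939587, minus strand), which promotes invasion of the sister duplex, stood at 6.33, 12.5, 9.66 and 15.1 CPM in CCl4-treated knockouts and 1.63, 0.646, 0, 3.73 and 0.792 CPM in uninjured knockouts. The Rad51ap1 values of CCl4-treated controls were 15.7, 9.67 and 12.4 CPM, against 0 to 0.493 CPM (median 0) in uninjured controls. The injured and uninjured groups of Rad51ap1 did not overlap in either genotype. The log2 change of Rad51ap1 was 2.74 ± 0.58 in knockouts (adjusted p = 0.00211) and 5.44 ± 0.60 in controls (adjusted p = 3.81e-07), and both passed. Values of Rad54b (chr4:11558922-11615805, plus strand), a translocase of the same family as Rad54l, were 11.9, 5.34, 9.66 and 19.4 CPM in CCl4-treated knockouts, compared with 1.63, 0, 0, 6.71 and 1.58 CPM in uninjured knockouts. Libraries of CCl4-treated controls had 12.4, 11.7 and 11.6 CPM, against 0 to 1.19 CPM (median 0.328) in uninjured controls. For Rad54b, uninjured knockout mouse 20 reached the injured range, while the control groups did not overlap. In log2 terms Rad54b rose by 2.38 ± 0.59 in knockouts (adjusted p = 0.00749) and by 3.79 ± 0.56 in controls (adjusted p = 1.21e-05). Rad54l (chr4:116094264-116123690, minus strand), the mouse RAD54, a translocase of strand exchange, had 3.96, 2.67, 7.51 and 11.2 CPM in CCl4-treated knockouts, against 0.545, 4.52, 0.692, 1.49 and 0.792 CPM in uninjured knockouts. Controls had 14.7, 8.46 and 21.6 CPM after CCl4, against 0 to 1.15 CPM (median 0.727) in uninjured controls. For Rad54l, uninjured knockout mouse 5 reached the injured range, while the control groups did not overlap. Rad54l rose on the log2 scale by 1.76 ± 0.57 in knockouts (adjusted p = 0.0369) and by 3.83 ± 0.46 in controls (adjusted p = 8.40e-07). Rad51ap1, like Bard1, had 4 counts in all over the 6 uninjured controls. Rad54b shares exon bases with Fsbp on its own strand, and reads of the pair cannot be told apart from the counts.

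Of the paralog complex genes, which act in recombination, 0 of 4 tested rose in knockout hepatocytes and 2 in controls. Rad51c (chr11:87376645-87404954, minus strand), shared by both paralog complexes, stood at 2.38, 0, 7.51 and 7.77 CPM in CCl4-treated knockouts and 0.545, 1.94, 0, 2.98 and 0.792 CPM in uninjured knockouts. Rad51c in CCl4-treated controls was at 9.16, 6.22 and 6.63 CPM, against 0 to 2.88 CPM (median 0.41) in uninjured controls. For Rad51c, CCl4-treated knockout mice 13 and 14 lay within the uninjured range, while the control groups did not overlap. Rad51c did not pass with a log2 change of 1.63 ± 0.79 in knockouts (adjusted p = 0.182) and rose with one of 3.34 ± 0.64 in controls (adjusted p = 0.000257). Values of Xrcc2 (chr5:25689812-25705825, minus strand), a member of the complex that also holds Rad51b, Rad51c and Rad51d, were 4.75, 13.3, 0 and 7.77 CPM in CCl4-treated knockouts, compared with 2.18, 0, 0, 6.71 and 0.792 CPM in uninjured knockouts. With CCl4 the control values of Xrcc2 were 3.67, 3.63 and 4.15 CPM, against 0 to 0.959 CPM (median 0.511) in uninjured controls. For Xrcc2, CCl4-treated knockout mice 13 and 17 lay within the uninjured range, while the control groups did not overlap. Xrcc2 passed in controls only, with log2 differences of 1.54 ± 0.72 in knockouts (adjusted p = 0.172) and 2.22 ± 0.71 in controls (adjusted p = 0.0207). Rad51b and Rad51d did not pass, with log2 differences of 1.36 ± 0.65 and -0.55 ± 0.32 in controls. Rad51b ranged from 14.3 to 64.0 CPM in CCl4-treated knockouts, from 12.6 to 36.1 in CCl4-treated controls, from 2.18 to 22.4 in uninjured knockouts and from 1.64 to 13.8 in uninjured controls. Xrcc3 held at most 4.75 CPM in any hepatocyte library.

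Among the Fanconi genes, Brip1 and Fancm rose in control hepatocytes and Fance fell. Brip1 (chr11:86058138-86201193, minus strand), a helicase that binds Brca1 and is also called FANCJ, had 15.8, 33.8, 24.7 and 36.3 CPM in CCl4-treated knockouts, against 4.9, 5.81, 3.46, 17.2 and 3.17 CPM in uninjured knockouts. Injured controls held 39.3, 43.5 and 39.4 CPM, against 1.6 to 6.25 CPM (median 4.15) in uninjured controls. For Brip1, uninjured knockout mouse 20 reached the injured range, while the control groups did not overlap. In log2 terms Brip1 rose by 1.76 ± 0.38 in knockouts (adjusted p = 0.00383) and by 2.60 ± 0.34 in controls (adjusted p = 9.99e-06). Fancm (chr12:65075603-65132058, plus strand), a translocase that anchors the core complex at stalled forks, stood at 7.92, 5.34, 3.22 and 16 CPM in CCl4-treated knockouts and 3.27, 5.16, 0.692, 2.24 and 5.54 CPM in uninjured knockouts. The Fancm values of CCl4-treated controls were 17.9, 12.6 and 12 CPM, against 1.01 to 6.9 CPM (median 4.85) in uninjured controls. For Fancm, CCl4-treated knockout mice 14 and 17 lay within the uninjured range, while the control groups did not overlap. Fancm did not pass with a log2 change of 1.11 ± 0.49 in knockouts (adjusted p = 0.144) and rose with one of 1.04 ± 0.37 in controls (adjusted p = 0.0388). Values of Fance (chr17:28313519-28326572, plus strand), the core protein that contacts Fancd2, were 6.33, 3.56, 6.44 and 4.75 CPM in CCl4-treated knockouts, compared with 3.27, 2.58, 4.15, 3.73 and 4.75 CPM in uninjured knockouts. Libraries of CCl4-treated controls had 5.29, 5.87 and 4.98 CPM, against 4.0 to 13.4 CPM (median 7.31) in uninjured controls. For Fance, CCl4-treated knockout mice 14 and 18 lay within the uninjured range, and CCl4-treated control mice 12, 15 and 16 lay within the uninjured range. Fance passed in controls only, with log2 differences of 0.23 ± 0.40 in knockouts (adjusted p = 0.772) and -0.83 ± 0.30 in controls (adjusted p = 0.0487). The Fance call of CCl4 in controls was lost under 8 of 10 other settings and in 15 of 17 fits that left out 1 library, with log2 values of -1.09 to -0.40 over the settings. Fancc and Fancl, the ubiquitin ligase of the core, were tested and did not pass. Fancd2 and Fanci, the clamp that the core marks with ubiquitin, were below the filter, with at most 3 counts in either uninjured group. Fancd2 had 3.96, 2.67, 3.22 and 4.32 CPM in CCl4-treated knockouts and 0 counts in 5 uninjured knockout libraries, at least 9.24-fold higher against a floor of 3 counts over the group. In controls Fancd2 had 6.92, 5.35 and 2.90 CPM after CCl4, with 72 counts, and at most 0.164 CPM without it, with 3 counts, a ratio of 42.1 with a 95% counting interval of 13.8 to 209. Fanci had 50 counts in CCl4-treated controls and 2 in uninjured controls, a ratio of 43.9 (11.5 to 372). Fanca, with 17 and 3 counts in the same order, gave 9.94 (2.88 to 53.0). These intervals cover counting error only. Fancg had 3.05 to 7.05 CPM in CCl4-treated controls and 0 to 2.88 in uninjured controls, Fancb 5.50 to 6.56 and 0 to 0.959, while Fancf overlapped, with 2.07 to 2.42 against 1.01 to 2.62.

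Resection, the trimming of a broken end to a single strand, starts with the complex of Mre11a, Rad50 and Nbn. Mre11a and Rad50 rose in both genotypes, whereas Nbn did not pass in either. Mre11a (chr9:14784654-14837123, plus strand), the nuclease of the complex, had 15.8, 19.6, 14 and 16.4 CPM in CCl4-treated knockouts, against 4.9, 3.23, 3.46, 8.95 and 0.792 CPM in uninjured knockouts. Controls had 24.6, 20.6 and 16.2 CPM after CCl4, against 0.80 to 9.59 CPM (median 5.31) in uninjured controls. All injured libraries lay above the uninjured ones of their genotype for Mre11a. The log2 change of Mre11a was 1.67 ± 0.44 in knockouts (adjusted p = 0.0145) and 1.61 ± 0.36 in controls (adjusted p = 0.00218), and both passed. Rad50 (chr11:53649519-53707319, minus strand), its ATPase, stood at 73.6, 52.5, 64.4 and 86.8 CPM in CCl4-treated knockouts and 32.7, 22.6, 30.4, 47 and 26.9 CPM in uninjured knockouts. Rad50 in CCl4-treated controls was at 67.8, 56.8 and 65.5 CPM, against 20.1 to 37.6 CPM (median 26.3) in uninjured controls. Neither genotype had an uninjured library of Rad50 within the injured range. In log2 terms Rad50 rose by 0.85 ± 0.21 in knockouts (adjusted p = 0.00795) and by 0.81 ± 0.20 in controls (adjusted p = 0.00500). Values of Rbbp8 (chr18:11633276-11745221, plus strand), which switches on the Mre11a nuclease and is also known as CtIP, were 33.3, 22.2, 33.3 and 37.6 CPM in CCl4-treated knockouts, compared with 29.4, 25.2, 33.2, 19.4 and 8.71 CPM in uninjured knockouts. With CCl4 the control values of Rbbp8 were 43.6, 36.4 and 36.5 CPM, against 9.0 to 24 CPM (median 12.3) in uninjured controls. For Rbbp8, CCl4-treated knockout mouse 14 lay within the uninjured range, while the control groups did not overlap. Rbbp8 passed in controls only, with log2 differences of 0.17 ± 0.28 in knockouts (adjusted p = 0.746) and 1.14 ± 0.27 in controls (adjusted p = 0.00365). Nbn, the subunit that recruits Atm, had 21.4, 16.9, 16.1 and 32.4 CPM in CCl4-treated knockouts, 24.2, 26.2 and 29.0 in CCl4-treated controls, 16.9, 17.4, 21.4, 11.9 and 15.0 in uninjured knockouts and 14.1 to 30.4 CPM (median 19.2) in uninjured controls. The Nbn groups overlapped in both genotypes, with log2 differences of 0.14 in knockouts (adjusted p = 0.755) and -0.03 in controls (adjusted p = 0.934). Of the nucleases of long-range resection, Dna2 was tested and did not pass (log2 difference 0.67 ± 0.30 in controls, adjusted p = 0.105). Exo1 was below the filter, with 66 counts in CCl4-treated controls and 3 in uninjured controls, a ratio of 38.6 (12.6 to 192).

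Of the genes that take joint molecules apart, Blm rose in controls. Blm (chr7:80454733-80535119, minus strand), a helicase that dissolves double Holliday junctions, had 16.6, 12.5, 10.7 and 20.3 CPM in CCl4-treated knockouts, against 3.27, 4.52, 2.77, 12.7 and 3.96 CPM in uninjured knockouts. Injured controls held 22, 14.3 and 11.2 CPM, against 1.92 to 9.7 CPM (median 3.51) in uninjured controls. For Blm, uninjured knockout mouse 20 reached the injured range, while the control groups did not overlap. For Blm the log2 change was 1.26 ± 0.47 in knockouts (adjusted p = 0.0865), which did not pass, and 1.28 ± 0.40 in controls (adjusted p = 0.0217), which did. Eme1, the partner of the Mus81 nuclease, was below the filter at 0 to 4.32 CPM in CCl4-treated knockouts, 1.66 to 4.48 in CCl4-treated controls, 0 to 0.746 in uninjured knockouts and 0 to 0.655 in uninjured controls. Msh6 (chr17:87975062-87990892, plus strand), which recognises mismatches, stood at 16.6, 21.3, 17.2 and 13.8 CPM in CCl4-treated knockouts and 12, 3.87, 9.69, 12.7 and 8.71 CPM in uninjured knockouts. The Msh6 values of CCl4-treated controls were 23.8, 15.4 and 27.4 CPM, against 4.79 to 11.5 CPM (median 8.89) in uninjured controls. No uninjured library of Msh6 reached an injured one of the same genotype. Msh6 did not pass with a log2 change of 0.59 ± 0.32 in knockouts (adjusted p = 0.262) and rose with one of 0.85 ± 0.28 in controls (adjusted p = 0.0305).

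Of the kinases, 3 of 4 rose in each genotype, and Atm did not pass. Values of Atr (chr9:95857597-95951781, plus strand), the kinase that senses single strands at stalled forks, were 19.8, 22.2, 26.8 and 22 CPM in CCl4-treated knockouts, compared with 9.26, 11, 5.53, 11.2 and 6.33 CPM in uninjured knockouts. Libraries of CCl4-treated controls had 17.9, 15.9 and 17.8 CPM, against 5.6 to 14.1 CPM (median 6.52) in uninjured controls. Atr was higher in every injured library than in any uninjured one of its genotype. In log2 terms Atr rose by 1.11 ± 0.26 in knockouts (adjusted p = 0.00666) and by 0.84 ± 0.24 in controls (adjusted p = 0.0130). Chek1 (chr9:36708482-36727065, minus strand), the effector kinase of Atr, had 5.54, 14.2, 9.66 and 12.1 CPM in CCl4-treated knockouts, against 0.545, 0.646, 1.38, 8.21 and 0.792 CPM in uninjured knockouts. Controls had 11.8, 12.8 and 16.2 CPM after CCl4, against 0 to 1.97 CPM (median 0.327) in uninjured controls. For Chek1, uninjured knockout mouse 20 reached the injured range, while the control groups did not overlap. Chek1 rose on the log2 scale by 1.96 ± 0.62 in knockouts (adjusted p = 0.0335) and by 3.41 ± 0.54 in controls (adjusted p = 3.92e-05). Chek2 (chr5:110839979-110874145, plus strand), the effector kinase of Atm, stood at 4.75, 23.1, 20.4 and 10.4 CPM in CCl4-treated knockouts and 1.63, 2.58, 0.692, 5.97 and 0.792 CPM in uninjured knockouts. Chek2 in CCl4-treated controls was at 12.2, 11.2 and 6.63 CPM, against 0 to 2.95 CPM (median 0.969) in uninjured controls. For Chek2, uninjured knockout mouse 20 reached the injured range, while the control groups did not overlap. Both genotypes passed for Chek2, with log2 changes of 2.34 ± 0.57 in knockouts (adjusted p = 0.00792) and 2.36 ± 0.50 in controls (adjusted p = 0.00103). Atm, the kinase that senses breaks, had 11.1, 14.2, 12.9 and 9.93 CPM in CCl4-treated knockouts, 23.0, 16.6 and 9.54 in CCl4-treated controls, 5.45, 13.6, 6.23, 13.4 and 2.38 in uninjured knockouts and 3.03 to 12.3 CPM (median 10.6) in uninjured controls. The Atm groups overlapped, and its log2 differences were 0.26 ± 0.42 in knockouts and 0.35 ± 0.35 in controls.

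In knockout hepatocytes 11 of the 36 genes rose after CCl4 and 0 fell, against 13.9% of all genes called and 7.02% called as higher. They were Brca1, Bard1, Rad51ap1, Rad54b, Rad54l, Brip1, Mre11a, Rad50, Atr, Chek1 and Chek2. Every injured knockout was above every uninjured one for 10 of the 36 genes, against 5.68% of all genes listed (7 of them tested, against 13% of tested genes). Leaving out 1 library moved the count of 11 between 7, without CCl4-treated knockout mouse 18, and 13, without uninjured knockout mouse 20. Leaving out 1 library at a time, 7 of the 11 calls in knockouts and 13 of the 19 in controls held in every fit that tested the gene. Among the 13, Rad51c was tested in 17 of the 18 fits and fell below the filter otherwise. Xrcc2 was tested in only 10 of the 18. In controls the calls of Atr and Blm were lost without CCl4-treated mouse 12, and that of Msh6 without mouse 12 or 16. That of Fancm was lost without CCl4-treated mouse 12 or 15 or uninjured mouse 7 or 8. Among the fits that tested Xrcc2, its call was lost without mouse 15. In knockouts the calls of Brca1 and Rad54b were lost without CCl4-treated mouse 18, that of Chek1 without mouse 4, 5, 10, 14, 17, 18 or 21, and that of Rad54l without mouse 4, 10, 17, 18, 20 or 21. Within the second file series, where CCl4-treated controls are 1 library (mouse 16) assumed to vary like the other groups, 5 of the 18 rises in controls passed: Bard1, Brip1, Chek1, Rad51ap1 and Rad54l.

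Markers of other cells moved in the same control libraries. In hepatocytes the sum of the Kupffer cell markers was 324 to 438 CPM in CCl4-treated controls and 9.37 to 179 in uninjured controls, with 4 of 10 markers called higher. Stellate cell markers summed to 377 to 1170.2 CPM in CCl4-treated controls and 10.03 to 286 in uninjured controls, with 4 of the 7 tested called higher. In knockouts, 0 of the 10 Kupffer and 0 of the 7 tested stellate markers were called, with Kupffer sums of 148 to 323 CPM after CCl4 and 111 to 1264 without it, and stellate sums of 242 to 501 and 142 to 1107. For scale, macrophages of CCl4-treated controls held 8556 to 14343 CPM of the Kupffer markers. The part of these markers in the hepatocyte results was not tested.

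**Figure D4:**
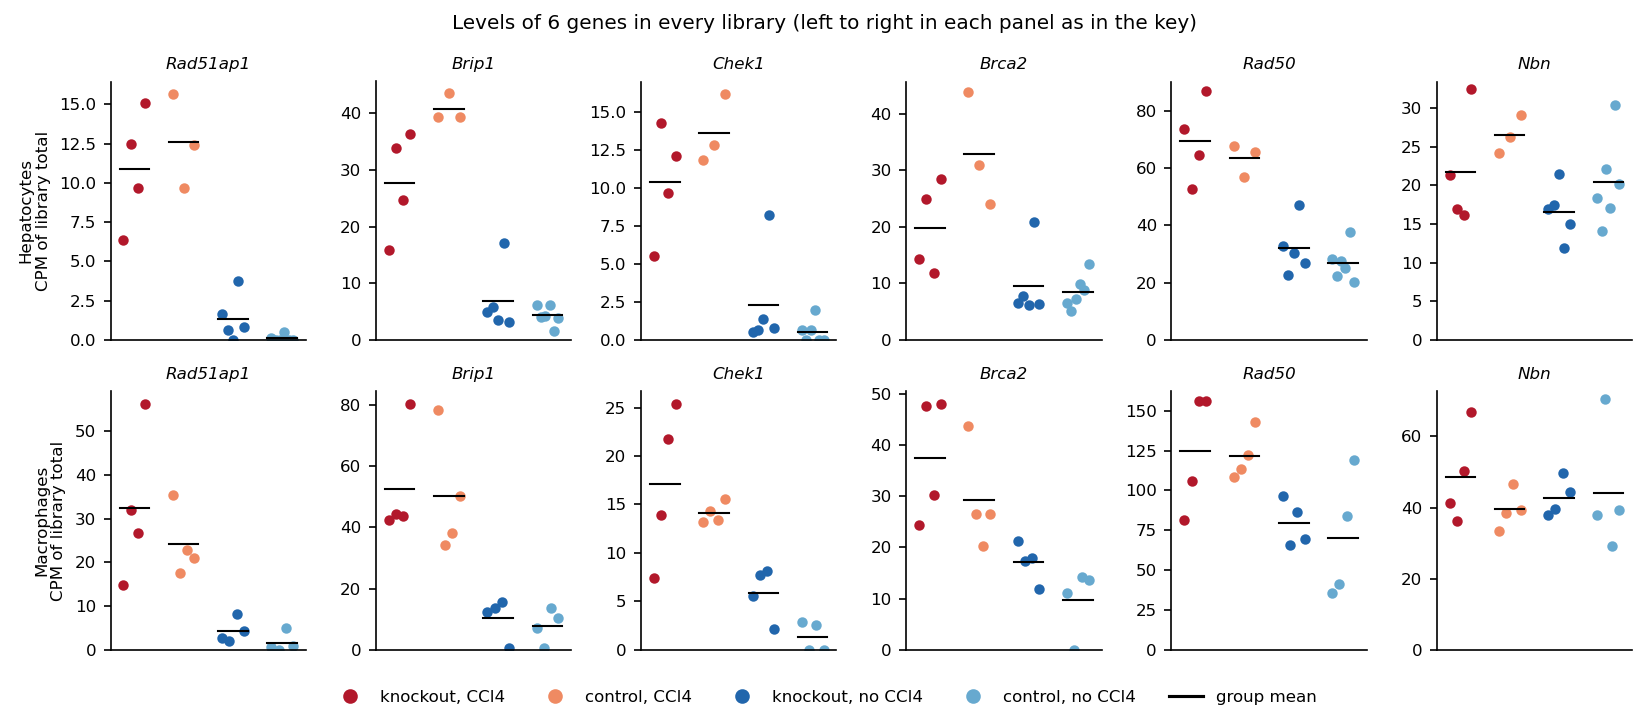
CPM of Rad51ap1, Brip1, Chek1, Brca2, Rad50 and Nbn in each library (points) with group means (horizontal lines), hepatocytes and macrophages, groups from left to right knockout with CCl4, control with CCl4, uninjured knockout and uninjured control. Uninjured knockout mouse 20 is the highest uninjured hepatocyte library for Rad51ap1, Brip1, Chek1, Brca2 and Rad50, and Nbn overlaps between injured and uninjured groups.

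In macrophages of controls, 11 of the 36 genes rose after CCl4 and 0 fell, against 13.2% of all 10815 genes called and 6.77% called as higher. The 3 strand exchange factors, Brca1, Bard1, Brip1, Fancd2, Fancg, Mre11a, Atm and Chek1 made up the 11. The test again covered 26 of the 36 genes, leaving out Rad51c, Xrcc2, Xrcc3, Fanca, Fancb, Fancc, Fancf, Fanci, Eme1 and Dna2. Every injured control was above every uninjured one for 20 of the 36 genes, against 7.36% of all genes listed, and 16 of these were tested, against 15.3% of tested genes. In knockout macrophages 5 genes rose, Brca1, Bard1, Rad51ap1, Rad54b and Fancd2, against 0.878% of all genes called and 0.767% called as higher. Injured knockouts lay above uninjured ones for 9 of the 36 genes (8 tested), against 2.73% of genes listed and 5.55% of those tested.

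Among the genes called in control macrophages, Rad54b, Rad54l and Bard1 had the largest changes. Values of Brca1 were 6.33, 13.1, 11.7 and 38.8 CPM in CCl4-treated knockouts, compared with 3.54, 1.93, 2.44 and 4.22 CPM in uninjured knockouts. With CCl4 the control values of Brca1 were 18.9, 24.3, 15.9 and 21 CPM, against 1.17, 0, 2.34 and 4.0 CPM in uninjured controls. The injured and uninjured groups of Brca1 did not overlap in either genotype. The log2 change of Brca1 was 2.49 ± 0.58 in knockouts (adjusted p = 0.0428) and 3.10 ± 0.59 in controls (adjusted p = 0.00179), and both passed. Bard1 had 11.6, 28.7, 20.1 and 34.2 CPM in CCl4-treated knockouts, against 1.18, 0, 9.76 and 2.81 CPM in uninjured knockouts. Injured controls held 17.2, 19.9, 24.3 and 11 CPM, against 0.583, 0.636, 1.75 and 1.6 CPM in uninjured controls. All injured libraries lay above the uninjured ones of their genotype for Bard1. In log2 terms Bard1 rose by 2.82 ± 0.57 in knockouts (adjusted p = 0.0189) and by 3.55 ± 0.62 in controls (adjusted p = 0.000743). Rad51ap1 stood at 14.8, 32, 26.8 and 56.3 CPM in CCl4-treated knockouts and 2.76, 1.93, 8.13 and 4.22 CPM in uninjured knockouts. The Rad51ap1 values of CCl4-treated controls were 35.4, 17.6, 22.8 and 21 CPM, against 0.583, 0, 5.07 and 0.80 CPM in uninjured controls. Neither genotype had an uninjured library of Rad51ap1 within the injured range. Rad51ap1 rose on the log2 scale by 2.92 ± 0.59 in knockouts (adjusted p = 0.0189) and by 3.11 ± 0.59 in controls (adjusted p = 0.00199). Values of Rad54b were 17.9, 21.3, 10.1 and 19.9 CPM in CCl4-treated knockouts, compared with 1.18, 0, 2.44 and 1.41 CPM in uninjured knockouts. Libraries of CCl4-treated controls had 9.6, 8.82, 7.44 and 10.1 CPM, against 0, 0, 0.585 and 0.80 CPM in uninjured controls. No uninjured library of Rad54b reached an injured one of the same genotype. Both genotypes passed for Rad54b, with log2 changes of 3.62 ± 0.56 in knockouts (adjusted p = 0.00362) and 4.04 ± 0.67 in controls (adjusted p = 0.000278). Rad54l had 11.6, 8.2, 21.8 and 64.6 CPM in CCl4-treated knockouts, against 10.2, 11.6, 24.4 and 6.33 CPM in uninjured knockouts. Controls had 18.9, 18.8, 23.8 and 37.5 CPM after CCl4, against 0, 0, 3.51 and 0.80 CPM in uninjured controls. For Rad54l, uninjured knockout mice 4, 5 and 20 reached the injured range, while the control groups did not overlap. For Rad54l the log2 change was 1.06 ± 0.62 in knockouts (adjusted p = 0.559), which did not pass, and 3.59 ± 0.77 in controls (adjusted p = 0.00452), which did. Brca2 and Palb2 did not pass in controls (adjusted p = 0.0713 and 0.194).

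Of the Fanconi genes, 3 rose in control macrophages. Brip1 stood at 42.2, 44.3, 43.6 and 80.3 CPM in CCl4-treated knockouts and 12.2, 13.5, 15.5 and 0.703 CPM in uninjured knockouts. Brip1 in CCl4-treated controls was at 78.1, 34.2, 38.2 and 50.3 CPM, against 6.99, 0.636, 13.6 and 10.4 CPM in uninjured controls. Brip1 was higher in every injured library than in any uninjured one of its genotype. Brip1 did not pass with a log2 change of 2.24 ± 0.55 in knockouts (adjusted p = 0.0681) and rose with one of 2.35 ± 0.54 in controls (adjusted p = 0.00804). Values of Fancd2, the clamp marked by the core, were 15.8, 18.1, 20.1 and 18.5 CPM in CCl4-treated knockouts, compared with 1.18, 0.966, 6.51 and 0.703 CPM in uninjured knockouts. With CCl4 the control values of Fancd2 were 13.6, 15.4, 8.43 and 17.4 CPM, against 0, 0, 1.56 and 1.6 CPM in uninjured controls. The injured and uninjured groups of Fancd2 did not overlap in either genotype. Fancd2 rose on the log2 scale by 2.92 ± 0.61 in knockouts (adjusted p = 0.0189) and by 3.46 ± 0.65 in controls (adjusted p = 0.00114). Fancg (chr4:43002343-43010506, minus strand), a scaffold of the core with Fanca, had 5.28, 10.7, 8.38 and 15.7 CPM in CCl4-treated knockouts, against 3.94, 10.6, 11.4 and 6.33 CPM in uninjured knockouts. Injured controls held 11.3, 5.51, 13.4 and 10.1 CPM, against 0, 0, 3.9 and 3.2 CPM in uninjured controls. For Fancg, uninjured knockout mice 5, 20 and 21 reached the injured range, while the control groups did not overlap. For Fancg the log2 change was 0.40 ± 0.59 in knockouts (adjusted p = 0.854), which did not pass, and 2.01 ± 0.64 in controls (adjusted p = 0.0430), which did. Fance, lower after CCl4 in control hepatocytes, had 15.8, 8.20, 8.38 and 20.3 CPM in macrophages of CCl4-treated knockouts, 19.9, 18.8, 14.9 and 17.4 in CCl4-treated controls, 11, 5.79, 5.69 and 13.4 in uninjured knockouts and 7.57, 0, 9.55 and 6.40 in uninjured controls. The control groups of Fance did not overlap, and its log2 difference of 1.24 ± 0.49 did not pass (adjusted p = 0.102). Fanci, below the filter, had 37 counts in CCl4-treated knockouts and 2 in uninjured knockouts, a ratio of 23.4 (6.03 to 200.2).

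Of the resection factors and kinases, Mre11a, Chek1 and Atm rose in control macrophages. Mre11a stood at 25.3, 20.5, 23.5 and 54.9 CPM in CCl4-treated knockouts and 22.4, 9.66, 17.1 and 15.5 CPM in uninjured knockouts. The Mre11a values of CCl4-treated controls were 46.7, 36.4, 12.9 and 28.3 CPM, against 7.57, 13.4, 12.3 and 8.0 CPM in uninjured controls. For Mre11a, uninjured knockout mouse 4 reached the injured range, and uninjured control mouse 7 reached the injured range. Mre11a did not pass with a log2 change of 0.86 ± 0.41 in knockouts (adjusted p = 0.430) and rose with one of 1.30 ± 0.42 in controls (adjusted p = 0.0460). Values of Chek1 were 7.39, 13.9, 21.8 and 25.4 CPM in CCl4-treated knockouts, compared with 5.51, 7.72, 8.13 and 2.11 CPM in uninjured knockouts. Libraries of CCl4-treated controls had 13.2, 14.3, 13.4 and 15.5 CPM, against 2.91, 0, 2.53 and 0 CPM in uninjured controls. For Chek1, CCl4-treated knockout mouse 13 lay within the uninjured range, while the control groups did not overlap. Chek1 passed in controls only, with log2 differences of 1.5 ± 0.55 in knockouts (adjusted p = 0.258) and 2.75 ± 0.62 in controls (adjusted p = 0.00603). Atm had 29.5, 31.2, 41.9 and 77.1 CPM in CCl4-treated knockouts, against 32.3, 20.3, 15.5 and 18.3 CPM in uninjured knockouts. Controls had 69.2, 49.6, 54.1 and 49.4 CPM after CCl4, against 13.4, 26.1, 25.7 and 18.4 CPM in uninjured controls. For Atm, uninjured knockout mouse 4 reached the injured range, while the control groups did not overlap. For Atm the log2 change was 0.95 ± 0.35 in knockouts (adjusted p = 0.269), which did not pass, and 1.16 ± 0.34 in controls (adjusted p = 0.0325), which did. Rbbp8 had 127, 101, 181 and 212 CPM in CCl4-treated knockouts, 123, 164, 174 and 151 in CCl4-treated controls, 113, 112, 129 and 142 in uninjured knockouts and 156, 109, 136 and 200 in uninjured controls. These groups overlapped, and its log2 difference in controls was -0.18 ± 0.23 (adjusted p = 0.652). Nbn (log2 difference -0.39 ± 0.30), Rad50 (0.60 ± 0.31) and Atr (0.71 ± 0.28) did not pass in control macrophages either.

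Leaving out 1 macrophage library moved the count of 11 between 8 and 13, and 8 of the 11 calls held throughout, the others being lost with 1 of several libraries: Atm without control mouse 6, 9, 11, 15 or 16, Fancg without any of these, control mouse 7 or knockout mouse 5 or 21, and Mre11a without control mouse 6, 8, 9, 11, 12 or 16 or knockout mouse 5, 17 or 21. The count of 5 in knockouts ranged from 1 to 6, and fell to 1, Rad54b, without uninjured knockout mouse 4, 5 or 21 or CCl4-treated knockout mouse 18. Brca1 in knockouts was lost under 13 of the 16 omissions, and held without control mouse 7 or CCl4-treated knockout mouse 13 or 17. Hepatocyte markers in macrophages summed to 33011, 28284, 3074 and 2784 CPM in CCl4-treated knockouts, 7787, 15561, 879 and 378 in CCl4-treated controls, 4024 to 13003 in uninjured knockouts and 15017 to 16684 in uninjured controls. Kupffer markers in knockouts summed to 6315, 7237, 20068 and 23379.9 CPM after CCl4 and 17084 to 21179.5 without it, so mice 13 and 14 were high in hepatocyte and low in Kupffer markers. Monocyte markers rose in control macrophages after CCl4, 6 of 6, with a sum of 531 to 832 CPM in CCl4-treated controls and 52.8 to 157 in uninjured controls. In knockouts 0 of 6 were called, with 217 to 304 CPM after CCl4 and 173 to 352 without it. In controls the Kupffer markers summed to 8556 to 14343 CPM after CCl4 and 13049 to 17361 without it, with 3 of 10 called lower. The part of these marker changes in the macrophage results was not tested.

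Between the cell types, 8 genes rose after CCl4 in controls in both: Bard1, Brca1, Brip1, Chek1, Mre11a, Rad51ap1, Rad54b and Rad54l. They are 44.4% of the 18 in hepatocytes and 72.7% of the 11 in macrophages, and 22 of the 36 genes were tested in both. Bard1, Brca1, Rad51ap1 and Rad54b were called in knockouts and controls of both cell types. Of all genes tested, 13.7% were called as higher in control hepatocytes and 6.77% in control macrophages. In knockouts the shares were 7.02% and 0.767%. The share of all genes that rose in both cell types is not given here, so the overlap has no background to be read against. The difference of the responses, hepatocytes minus macrophages, was tested for 30 of the 36 genes, and 2 passed, against 5.0% of all genes called. Rbbp8 responded more in hepatocytes, with 43.6, 36.4 and 36.5 CPM in CCl4-treated controls and 9.0 to 24 CPM (median 12.3) in uninjured controls there, against overlapping macrophage values of 123 to 174 and 109 to 200 in the same order. The difference in log2 change was 1.33 ± 0.36 (adjusted p = 0.0285). Fance responded less in hepatocytes, with a difference of -2.10 ± 0.60 (adjusted p = 0.0367), and uninjured control macrophages included 1 library, mouse 7, with 0 counts of it. Both calls were lost without the 2 libraries with conflicting labels and with the mouse number as a block, and without hepatocytes of control mouse 2, 12 or 15 or macrophages of control mouse 9 or 11, that of Fance also without hepatocytes of mouse 16. The median difference was 0.26 over the 30 repair genes tested and 0.20 over all genes. Of the 28 division genes 14 responded more in hepatocytes, with a median of 3.42. That count was 6 to 9 without hepatocytes of control mouse 2, 12, 15 or 16 or macrophages of control mouse 8, and 5 to 15 under other settings. Whether the repair and division lists differ in this was not tested.

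Few of these genes passed between genotypes. Without CCl4, 1 of the 36 differed between knockout and control hepatocytes, against 7.87% of all genes, and it was Fance, with 3.27, 2.58, 4.15, 3.73 and 4.75 CPM in knockouts and 4.0 to 13.4 CPM (median 7.31) in controls. Knockout mice 10 and 21 reached the lowest control, and the log2 difference was -1.26 ± 0.32 (adjusted p = 0.0231). Fance was lost with the file series as a term (adjusted p = 0.143), in the second series alone (0.298), with library totals alone (0.0548) and without uninjured control mouse 2 or knockout mouse 4, 5 or 20, and it fell below the filter without control mouse 7. After CCl4, 0 of the 36 passed between knockout and control hepatocytes, against 0.176% of all genes called, with 2 at an unadjusted p under 0.05 (12.8% of all genes) and 0 by DESeq2. These 2 were Rad54l (log2 difference -1.22 ± 0.43) and Brca2 (-0.84 ± 0.35). The interaction of genotype and CCl4 called 0 in hepatocytes, against 0.217% of genes, with 4 at an unadjusted p under 0.05 (10.2% of all genes) and 0 by DESeq2 and by limma voom. The lowest p was that of Rad51ap1, whose log2 change in knockouts minus controls was -2.70 ± 1.00 (adjusted p = 0.290).

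In macrophages, 0 passed between genotypes without CCl4, against 0.166% of genes, with 3 at an unadjusted p under 0.05 (12% of all genes) and 1, Rad54l, by DESeq2. Over the other settings, DESeq2 among them, the number of all genes called here ran from 8 to 677, against 18 in the main fit. Rad54l had 10.2, 11.6, 24.4 and 6.33 CPM in uninjured knockouts and 0, 0, 3.51 and 0.800 in uninjured controls, which did not overlap (log2 difference 2.69 ± 0.81, adjusted p = 0.168). After CCl4, 0 passed, against 0.0647% of genes, with 2 at an unadjusted p under 0.05 (8.05% of all genes) and 0 by DESeq2. For the interaction 0 passed, against 0.194%, with 1 at an unadjusted p under 0.05 (12.3% of all genes) and 0 by DESeq2. These tests share libraries with each other and with the CCl4 comparisons.

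Whether repair genes follow division was asked with 28 genes of mitosis and the spindle, none of them among the 36. The 28 summed to 2408 to 4251 CPM in CCl4-treated knockout hepatocytes, 2741 to 3129 in CCl4-treated controls, 31.8 to 695 in uninjured knockouts and 13.1 to 54.7 in uninjured controls. In macrophages they summed to 2026 to 2977 CPM in CCl4-treated knockouts, 2206 to 2982 in CCl4-treated controls, 232 to 1132 in uninjured knockouts and 174 to 280.0 in uninjured controls. All 28 rose in hepatocytes of both genotypes. In macrophages 13 of 27 tested rose in knockouts and 26 in controls. The 13 became 25 without uninjured knockout mouse 20, 4 to 5 without uninjured knockout mouse 4, 5 or 21 and 6 without CCl4-treated knockout mouse 18, and 9 to 26 under other settings. The yardstick genes of lowest p in control hepatocytes were Ndc80 of the kinetochore (log2 change 6.92 ± 0.62), Prc1 of the spindle midzone (5.84 ± 0.50) and the checkpoint kinase Bub1b (7.68 ± 0.67). Repair and division were both high in injured libraries, and the repair sum spanned a smaller range, as the plot of repair against division shows. Abundant genes weigh most in the repair sum, which had a median of 403 CPM in uninjured control macrophages. There the medians of Rbbp8, Rad50 and Nbn, none of which passed in control macrophages, were 146, 62.5 and 38.5 CPM. The smaller range of the sum therefore does not describe each gene.

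**Figure D5:**
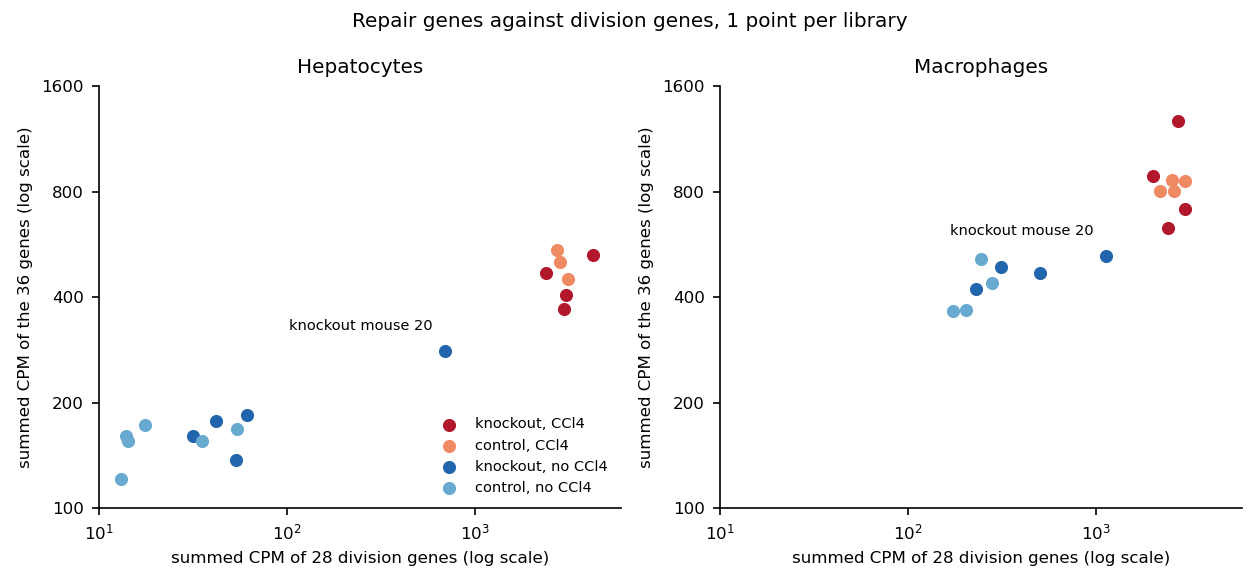
Summed CPM of the 36 repair genes (y) against summed CPM of the 28 division genes (x) in each library, both on log axes, hepatocytes (left) and macrophages (right). Injured libraries lie at the upper right, and hepatocytes of uninjured knockout mouse 20, with 695 CPM of division genes and 280.5 CPM of repair genes, lie between the uninjured and the injured groups.

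Between mice of the same group, the fit of each gene on the division score (the mean log2(CPM + 1) of the 28 genes, centred within its group) called 0 of the 36 in hepatocytes, against 0.765% of all genes. By unadjusted p under 0.05, 9 of the 26 tested had a positive slope, against 3.92% of all genes tested, and 0 had a negative one. Per unit of the score, Chek1 changed by 1.03 ± 0.27 (log2, adjusted p = 0.0850), Brip1 by 0.60 ± 0.16 (0.115) and Brca2 by 0.53 ± 0.14 (0.127). With a score from the replication genes 2 passed, Brca2 and Brip1. Over the other settings of this fit, that score among them, 21 to 81 genes of any kind passed. The slope rests on mouse 20: without its library 2 of the 36 had an unadjusted p under 0.05, and 0 genes of any kind passed. The share of all genes at that unadjusted p is not given for the fit without mouse 20. In macrophages 0 of the 36 and 0 genes of any kind passed, with 4 of the 36 at an unadjusted p under 0.05 (3.0% of all genes) and 0 of them without mouse 20. The lowest p there was that of Bard1 (slope 1.53 ± 0.40, adjusted p = 0.487).

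The hepatocytes of mouse 20, an uninjured knockout, stood apart. They held 695 CPM of the division genes, against 31.8 to 61.6 in the other 4 uninjured knockouts, and 280.5 CPM of the repair genes, against 138 to 185. This library was above every other uninjured hepatocyte library for 11.3% of all genes listed and for 15 of the 36 genes: Brca2, Palb2, Brip1, Rad51b, Rad51c, Rad51ap1, Rad54b, Xrcc2, Blm, Eme1, Exo1, Rad50, Chek1, Chek2 and Msh6. The next highest count was 6 genes, in knockout mouse 5. The macrophages numbered mouse 20 held 1132 CPM of the division genes, against 232 to 508 in the other 3 uninjured knockouts, and 523 CPM of the repair genes, against 423 to 489 there and up to 513 in uninjured controls. They were highest for 13.5% of all genes listed and for 12 of the 36: Bard1, Brip1, Palb2, Rad51c, Rad51ap1, Rad54b, Rad54l, Fancd2, Fancg, Fanci, Chek1 and Chek2. Among these, Fanci rests on 2 counts and Rad54b on 3. The next highest were knockout mice 4 and 21, with 6 each. Its hepatocyte values included 20.9 CPM of Brca2, against at most 7.75 in the other uninjured knockouts, 17.2 of Brip1, against at most 5.81, and 8.21 of Chek1, against at most 1.38. Nbn and Rbbp8 were not among these genes, at 11.9 and 19.4 CPM in its hepatocytes. Mouse 20 was singled out after its values were seen.

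Other repair pathways were read from lists of genes beside the 36, by how many passed and by the median log2 change of those tested. In control hepatocytes after CCl4, 15 of 33 further recombination and Fanconi genes rose and 0 fell (median 0.82), as did 10 of 15 checkpoint genes (2.06), 2 of 8 end joining genes (0.50), 0 of 5 mismatch repair genes (0.15) and 2 of 10 base excision genes (0.29). Of 15 nucleotide excision genes, which mend bulky lesions in any phase of the cycle, 0 rose and 2 fell (-0.17), and of 33 replication genes 32 rose and 1 fell (2.72). Over all genes the median was -0.01, with 27.4% called and 13.7% called as higher. The small counts of end joining, base excision and nucleotide excision genes were not tested against these shares. Hells, a chromatin remodeller, rose by 4.42 ± 0.48 (log2), and Gen1, a resolvase of joint molecules, by 2.64 ± 0.35. Parpbp, an inhibitor of recombination in human cells, was at 0 counts in all 6 uninjured controls and at 6.11 to 17.4 CPM in CCl4-treated controls. Among checkpoint genes, Clspn, the adaptor between Atr and Chek1, rose by 5.97 ± 0.77, Tipin of the fork protection complex by 2.09 ± 0.27, the phosphatase Cdc25b by 4.97 ± 0.72 and the histone H2afx by 2.32 ± 0.33. Of the other repair lists, the end joining regulators Rif1 (0.79 ± 0.19) and Paxip1 (0.78 ± 0.24), the glycosylase Neil3 (5.51 ± 0.77) and Parp2 (0.94 ± 0.24) rose, and the lesion binder Xpa (-0.98 ± 0.25) and Uvssa (-0.71 ± 0.20) fell. The replication genes of lowest p were Prim1 (3.14 ± 0.27) and Pola1 (2.60 ± 0.25) of the primase complex, the helicase subunit Mcm2 (3.67 ± 0.37) and the ligase Lig1 (3.58 ± 0.37). In knockout hepatocytes 13 of 33 further recombination genes, 8 of 15 checkpoint genes, 22 of 33 replication genes, 2 of 10 base excision genes and 1 of 15 nucleotide excision genes rose, while 2 nucleotide excision genes fell and 0 of 8 end joining and 0 of 5 mismatch repair genes were called. Of all genes in knockout hepatocytes 13.9% were called and 7.02% called as higher. Without CCl4-treated mouse 18 the calls were 12 for replication, 8 for recombination and 4 for checkpoint genes. Recombination calls were also 8 without mouse 14, and checkpoint calls 5 and 4 without mice 4 and 10. Within the second file series, control hepatocytes gave 17 replication, 8 recombination and 6 checkpoint calls.

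In control macrophages 9 of 34 further recombination and Fanconi genes rose (median 0.73), 4 of 14 checkpoint genes (0.74), 1 of 10 end joining genes (0.24), 3 of 11 base excision genes (0.36), 2 of 14 nucleotide excision genes (0.23) and 24 of 33 replication genes (1.74), and 0 fell in any of these lists. Over all genes the median was -0.03, with 13.2% called and 6.77% called as higher. The small counts of end joining, base excision and nucleotide excision genes were not tested against these shares. Rpa2, a subunit that coats single strands, had 31.7 to 85.4 CPM in CCl4-treated knockouts, 32.7 to 53.0 in CCl4-treated controls, 13.5 to 16.9 in uninjured knockouts and 9.32 to 10.4 in uninjured controls, without overlap in either genotype. It rose by 1.82 ± 0.30 in controls (log2, adjusted p = 0.000761). Usp1, which strips ubiquitin from Fancd2, rose by 1.56 ± 0.29, Hells by 2.80 ± 0.58 and Clspn by 3.73 ± 0.54. Outside the double-strand break genes, Parp1 (1.57 ± 0.30), Neil3 (2.75 ± 0.59) and Ung (1.78 ± 0.53) of base excision, Aplf of end joining (2.15 ± 0.66), and Ddb1 (1.16 ± 0.25) and Gtf2h5 (0.74 ± 0.22) of nucleotide excision rose. In knockout macrophages 1 of 34 further recombination genes, 1 of 14 checkpoint genes and 5 of 33 replication genes rose, and 0 in the other repair lists, the 5 ranging from 1 (without mouse 5, 18 or 21) to 8 (without mouse 13) and from 4 to 14 under other settings. Of all genes in knockout macrophages 0.767% were called as higher. Within the second file series, replication calls in control macrophages were 15.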

How the data were processed

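Hepatocytes and F4/80+ CD45+ macrophages were profiled with QuantSeq 3′ forward kits and single 50 bp reads, per the labels. The submitters' processing notes name Trimmomatic 0.39, HISAT2 2.1.0 and the build GRCm38/mm10. How counts were assigned, with which annotation and strand setting, is not given in the sources used here. The authors deposited whole-number counts, with gene symbols as the gene identifiers: 24951 genes for 18 hepatocyte libraries and 26233 genes for 16 macrophage libraries, under 19 mouse numbers. Whether a number shared by the cell types marks 1 animal is not given in the sources used here. Libraries were grouped by their genotype and treatment labels. No pair of libraries within a group was a copy (chi-square per degree of freedom 5.16 to 42.5 over 58 pairs).

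CPM were computed from library totals. Counts were tested in R 4.3.3 with edgeR 4.0.16 (filterByExpr, TMM factors, robust quasi-likelihood F tests, 4 groups per cell type, Benjamini-Hochberg over all genes, threshold 0.05). The cell types were compared in a fit of 8 groups on the genes of both tables. Each SE was derived as the log2 change divided by the root of its F statistic, an approximation. Ratios with 1 to 3 counts in 1 group have exact 95% counting intervals, which, like the floor of 3 counts, cover counting error only. Without a strand setting, reads of the 18 repair genes that share exon bases with a gene on the other strand, and of Rad54b (with Fsbp) and Atr (with Gm24004) on the same strand, cannot be assigned for certain. Positions are those of the GRCm38 annotation, and promoters those of RefSeq.

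The alternatives tried comprised RLE factors, omitting the filter, DESeq2 1.42.0, limma 3.58.1 voom, the file series as a term, the second series alone, the libraries with conflicting labels left out or moved, a replication score, a block for the mouse number and leaving out each library. The earlier quasi-likelihood method and library totals alone were added after seeing the data. Genes called in at least 1 comparison of a cell type are given by library, and of other lists up to 4 genes of lowest p (3 for division). The 36 genes, the lists and the comparisons were chosen with earlier results of these data known. The code was tested on simulated counts. Some genes of the other lists are not reported here.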

Additional observations from a re-analysis of the deposited data

Results flagged for a closer look

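Within groups of 4 to 6 libraries, 1 library lay far from the others in 16 of 101 combinations of gene and group. The same held for 3 of 21 combinations of a sum or score and group. Independent, normally distributed values would pass the cutoff in about 1 of 20 groups. Values of few counts, and several genes of 1 library, are not of that kind, so an excess over chance was not tested. Uninjured knockout mouse 20 accounts for 8 of the 19 combinations. Its hepatocytes had 695 CPM of the division genes (31.8 to 61.6 in the other uninjured knockouts), a division score of 4.18 (0.935 to 1.24), 12.7 CPM of Blm (2.77 to 4.52), 20.9 of Brca2 (6.23 to 7.75), 17.2 of Brip1 (3.17 to 5.81), 8.21 of Chek1 (0.545 to 1.38) and 6.71 of Rad54b (0 to 1.63). Its macrophages had 6.51 CPM of Fancd2, against 0.703 to 1.18 in the other uninjured knockouts. Uninjured knockout mouse 5 had 4.52 CPM of Rad54l in hepatocytes (0.545 to 1.49 in the others).

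Among uninjured control hepatocytes, mouse 6 had the lowest sum of the 36 genes, at 121 CPM (156 to 173 in the others), with 14.1 CPM of Atr (5.6 to 6.71) and 1.01 of Fancm (4.77 to 6.9). Bard1 was at 0.7998 CPM in mouse 9 (0 to 0.265), Chek1 at 1.97 in mouse 8 (0 to 0.664), Rad51ap1 at 0.493 in mouse 8 (0 to 0.133) and Rad51c at 2.88 in mouse 19 (0 to 0.8), all of them values of few counts. In macrophages, uninjured control mouse 8 had 5.07 CPM of Rad51ap1 (0 to 0.8 in the others), and CCl4-treated knockout mouse 18 had 80.3 of Brip1 (42.2 to 44.3) and 54.9 of Mre11a (20.5 to 25.3).

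By the test of the difference itself, the CCl4 response in controls differed between hepatocytes and macrophages for Rbbp8, with a log2 difference of 1.33 (higher in hepatocytes), and for Fance, with -2.10 (lower in hepatocytes). Of all genes 5.0% were called. The Rbbp8 call was lost under 2 of 7 other settings and in 5 of 17 fits that left out 1 library. The Fance call was lost under 5 of the 7 and in 6 of the 17.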

How the results depend on the processing

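Depth limits the low genes: 3 counts stand for 0.398 to 5.03 CPM. Over 1320 results for single genes under other settings, 1150 kept direction and call, 170 lost the call and 0 reversed. Fits in which a called gene fell below the filter are not among these results, which leaves out some for genes of low counts. Counts of the 36 genes called that moved by over 1.5 times follow, and the cause was not tested. In hepatocytes, the 19 calls of CCl4 in controls became 5 within the second file series (15 to 19 when 1 library was left out), and the 11 in knockouts ranged from 7 to 13 when 1 was left out. The 1 call between genotypes without CCl4 became 2 without the filter, 2 with library totals alone, 3 with DESeq2, 0 with the series as a term and 0 in the second series (0 to 1 when 1 library was left out). The 0 on the division score became 2 with a replication score (0 to 1). In macrophages, the 11 calls in controls became 17 with library totals alone (8 to 13 when 1 was left out), and the 5 in knockouts became 1 with the earlier quasi-likelihood method and 2 with voom (1 to 6). The 0 between genotypes without CCl4 became 1 without the filter and 1 with DESeq2, and the 0 of the interaction became 1 without the filter. Over these settings all genes called between genotypes without CCl4 ran from 8 to 677 in macrophages and from 50 to 1438 in hepatocytes. For the interaction in macrophages they ran from 6 to 697. The 2 calls of the difference between cell types became 1 without the filter, 1 with the earlier method, 1 with library totals alone, 0 without the libraries of conflicting labels and 0 with a replicate block (0 to 2 when 1 library was left out).

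Library totals alone and the earlier method were chosen after seeing the data. Library totals moved the median log2 change of all genes by over 0.1, to 0.42 for CCl4 in control hepatocytes and 0.19 in control macrophages, without reversing a gene. Mouse numbers are shared between cell types: of 15 pairs, 7 had correlated deviations over 0.1 (-0.106 to 0.314) and 7 matched best with their own number, so the numbers were not taken as pairing.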
